A study of Mus musculus with 45 samples.

Results

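The neural progenitor genes described here were Pax6, Sox1, Nes, Zic1, Neurog2, Pax3, Sox3, Otx2 and Pou3f1, chosen by their symbols. Of these 9 genes, 8 had a row in both RNA-seq tables, each of which lists 33924 genes, and the expression of Sox1 was not analysed here. RNA-seq was performed with D3 mouse embryonic stem cells (ESCs) of the 129 strain that carry a deletion of the long non-coding RNA gene 5430416N02Rik. In ΔG cells the gene body was replaced by a GFP-IRES-Puro cassette, which leaves the promoter, and in ΔPG cells the promoter and gene body were replaced by a PGK-puro cassette. Both lines were made with CRISPR/Cas9 and picked as clones, and the study names 1 heterozygous (het) and 1 homozygous (hom) clone of each line for RNA-seq, so clone and genotype cannot be told apart. Cells were grown in medium with serum and LIF, the cytokine that keeps ESCs undifferentiated, and treated with DMSO (ES) or with 2 µM retinoic acid (RA) for 48 hours. Each of the 8 groups had 3 samples, and all carry at least 1 deleted allele, since wild-type cells were not analysed here. The samples are called biological replicates, but nothing says how cultures were separated, so p-values measure the spread between these samples.

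During neural induction, ESCs leave pluripotency, pass an epiblast-like state and become neural progenitors, which are recognized by sets of transcription factors. Retinoic acid binds nuclear receptors that switch on developmental genes, and in the embryo it favours hindbrain and spinal cord over forebrain fates. Pax6 and Sox1 mark committed neural progenitors, Sox3 and Zic1 act early in the neural plate, Otx2 is a factor of epiblast, forebrain and midbrain, and Pou3f1 drives early neural commitment. Pax3 marks the dorsal neural tube and neural crest, Neurog2 starts neuron formation, and Nes encodes nestin, an intermediate filament protein of neural progenitors.

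The annotation used by the authors places Pax6 at chr2:105509053-105543317 (plus strand), Nes at chr3:87775000-87784373 (plus), Zic1 at chr9:91252896-91260648 (minus), Otx2 at chr14:49277354-49287319 (minus) and Pou3f1 at chr4:124334889-124337899 (plus) in NCBIM37 (mm9). It classes Pou3f1 as a pseudogene, although the gene encodes a POU-domain protein. Promoter sequence was read from RefSeq on another build, GRCm38.p6, for 6 of the 9 genes. The following windows of 250 bases end just before the annotated start and are shown because these 4 genes moved with retinoic acid, Pax6, Nes and Zic1 upwards and Otx2 downwards. They lie at chr2:105668646-105668895 (plus), chr3:87970843-87971092 (plus), chr9:91365769-91366018 (minus) and chr14:48667645-48667894 (minus), each written 5′ to 3′ on the strand of its gene. Capitals mark retinoic acid receptor half-site letters on either strand.
Pax6 promoter: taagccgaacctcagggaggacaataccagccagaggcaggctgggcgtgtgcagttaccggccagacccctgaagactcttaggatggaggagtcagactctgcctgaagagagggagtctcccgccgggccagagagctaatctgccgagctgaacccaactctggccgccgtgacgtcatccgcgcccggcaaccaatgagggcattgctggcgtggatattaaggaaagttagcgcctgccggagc
Nes promoter: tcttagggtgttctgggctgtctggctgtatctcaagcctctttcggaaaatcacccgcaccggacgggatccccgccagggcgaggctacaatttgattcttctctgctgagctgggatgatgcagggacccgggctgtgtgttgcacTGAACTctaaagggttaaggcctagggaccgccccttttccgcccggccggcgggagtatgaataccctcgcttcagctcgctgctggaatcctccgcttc
Zic1 promoter: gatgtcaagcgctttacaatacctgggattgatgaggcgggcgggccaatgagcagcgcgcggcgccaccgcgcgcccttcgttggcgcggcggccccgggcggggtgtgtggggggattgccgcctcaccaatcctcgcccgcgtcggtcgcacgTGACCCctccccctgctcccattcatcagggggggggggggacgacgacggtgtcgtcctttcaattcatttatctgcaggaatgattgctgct
Otx2 promoter: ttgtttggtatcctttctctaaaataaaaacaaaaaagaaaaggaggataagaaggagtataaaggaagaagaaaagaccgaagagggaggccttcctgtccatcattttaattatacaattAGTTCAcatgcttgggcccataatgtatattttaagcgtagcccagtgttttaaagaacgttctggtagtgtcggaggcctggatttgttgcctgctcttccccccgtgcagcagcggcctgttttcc
The half-site AGGTCA was searched together with its variant AGTTCA and a second variant, GGGTCA, on both strands. The table holds 2 windows for Pax6 and 4 for Otx2, of which the one farthest upstream is shown. A single match occurred in the Nes, Zic1 and Otx2 windows shown and in the Sox1 window. None occurred in the other Otx2 windows, in either Pax6 window or in the Neurog2 window. Thus 4 of the 6 genes had a match in at least 1 window, and 32.9% of the 32851 windows of the same length in the table held at least 1. A pair in the same orientation with 1, 2 or 5 bases between them, the arrangement that the receptors are known to bind, was in none of the windows of the 6 genes and in 0.29% of all windows. A match describes letters and not binding, and no match says only that these letters are not in this window.

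The deposited tables hold log2-scaled rlog values, a regularized transformation that shrinks differences of genes with few reads, and each table was normalized on its own, so levels are compared within a gene and within a table. The deleted gene checked the labels: in ΔG, 5430416N02Rik lay between 5.50 and 5.64 in the 6 het samples and between 2.63 and 3.08 in the 6 hom samples, and in ΔPG between 3.80 and 4.62 in het and between 2.12 and 2.66 in hom samples. The ΔPG clones also differed in Trp53, which encodes the tumor suppressor p53, with group means of 7.05 and 6.04 in het ES and RA and of 4.02 and 3.83 in hom ES and RA. In ΔG the group means of Trp53 lay between 2.28 and 2.62. Markers of other cell types moved with retinoic acid in all 4 pairs of groups. The mean rlog level of 9 ESC markers per sample was between 9.52 and 9.83 in ES and between 6.23 and 6.50 in RA, and that of 8 primitive endoderm markers between 2.91 and 3.26 in ES and between 4.83 and 5.54 in RA. In bulk RNA, more cells of a type and more RNA per cell cannot be told apart, and the part of these shifts in the values of the neural genes was not tested.

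The first comparison asked which of the 8 neural genes changed when ESCs were treated with retinoic acid. Pax6, Nes, Pou3f1 and Zic1 rose in both genotypes of both lines, Sox3 rose in 3 of the 4 pairs of groups, and Otx2 fell in all 4. Pax3 and Neurog2 were not called in any of them. Calls required a limma p under 0.1 after Benjamini-Hochberg adjustment and a log2 difference over 0.5. In ΔG het cells, 4 of the 8 genes were called higher and 1 lower, where 17.7% of all genes tested were called higher and 11.7% lower. In ΔG hom cells, 5 were called higher and 1 lower, against 17.0% and 12.1% of all genes. In ΔPG het cells, 5 were called higher and 1 lower, against 18.0% and 13.6%, and in ΔPG hom cells 5 higher and 1 lower, against 16.5% and 11.3%. The median difference of the 8 genes was 0.48, 0.87, 0.59 and 0.62 in these 4 comparisons, where the median of all genes lay between 0.01 and 0.04.

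**Figure D1:**
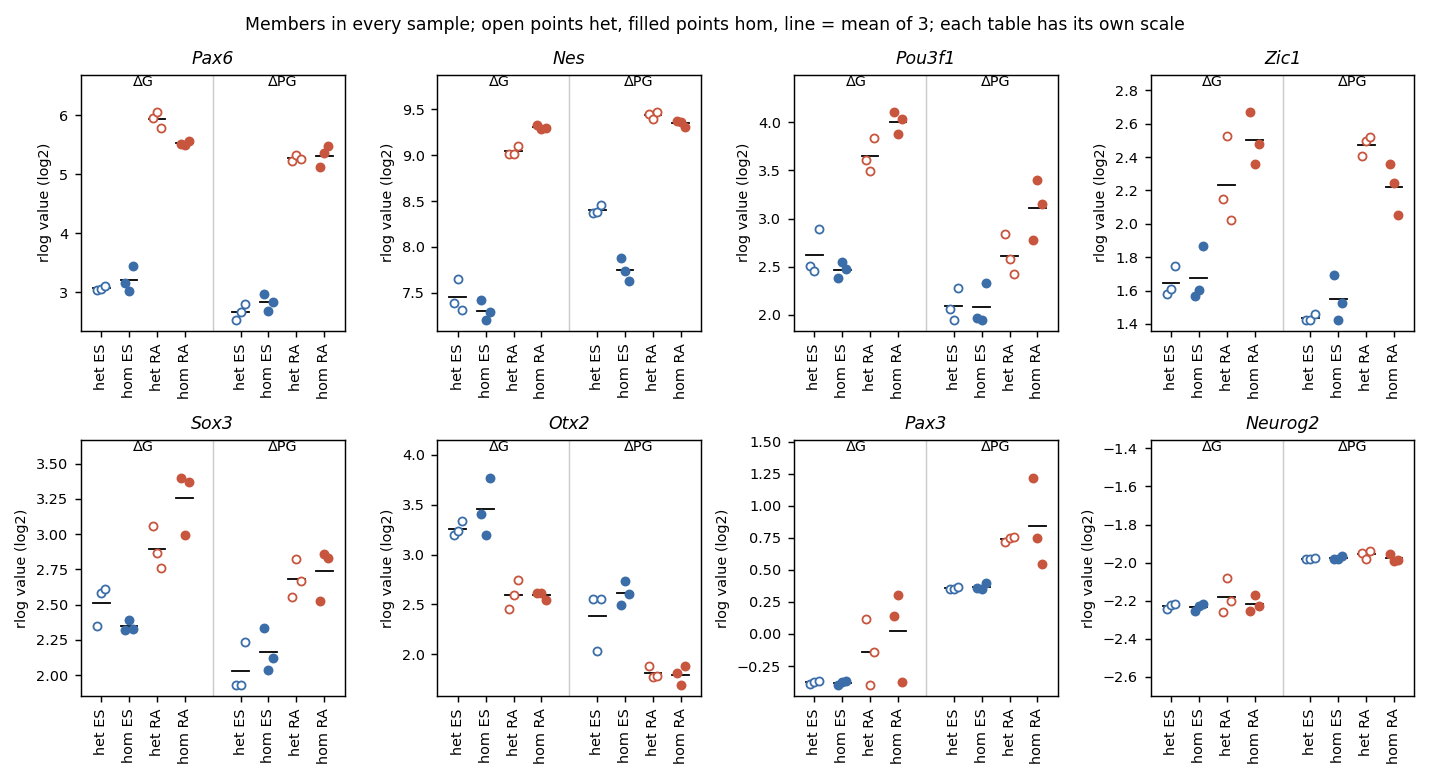
Rlog value (log2) of each gene in every sample, with ΔG groups left and ΔPG groups right in each panel, open points het, filled points hom, blue ES, red RA, and a line at the mean of 3 samples. Pax6, Nes, Pou3f1, Zic1 and Sox3 are higher and Otx2 is lower in all RA samples than in the ES samples of the same line and genotype, and Neurog2 stays below -1.9. How many of all genes separate in this way was not counted.

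Pax6, a paired-box factor of neural and eye progenitors, had the largest difference of the 8 genes. In ΔG its rlog values were 3.04, 3.06 and 3.10 in het ES and 5.95, 6.05 and 5.78 in het RA samples. In hom cells they were 3.16, 3.02 and 3.45 in ES and 5.52, 5.50 and 5.55 in RA samples. The lowest RA sample thus lay more than 2 log2 units above the highest ES sample. In ΔPG, the values were 2.53, 2.67 and 2.81 in het ES, 5.23, 5.32 and 5.26 in het RA, 2.98, 2.68 and 2.84 in hom ES, and 5.12, 5.35 and 5.47 in hom RA samples. RA minus ES was 2.86 (SE 0.115, adjusted p 1.5e-10) in ΔG het, 2.31 (SE 0.136, adjusted p 8.9e-11) in ΔG hom, 2.60 (SE 0.112, adjusted p 9.1e-07) in ΔPG het and 2.48 (SE 0.152, adjusted p 1.1e-07) in ΔPG hom cells by limma. In order of mean level, ΔG hom RA (5.52 ± 0.0279, SD, n = 3) stood below ΔG het RA (5.93 ± 0.136) without overlap, while the ES groups of either line overlapped, as did the ΔPG RA groups.

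Nes was already expressed in ES samples. In ΔG it was 7.39, 7.65 and 7.31 in het ES, 9.01, 9.01 and 9.09 in het RA, 7.42, 7.20 and 7.29 in hom ES, and 9.33, 9.29 and 9.29 in hom RA samples. In ΔPG it was 8.37, 8.38 and 8.45 in het ES, 9.45, 9.39 and 9.46 in het RA, 7.88, 7.74 and 7.63 in hom ES, and 9.37, 9.36 and 9.31 in hom RA samples. All RA samples were above all ES samples of their table, and in ΔPG the hom ES samples lay below the het ES samples without overlap. RA minus ES was 1.59 (SE 0.0802) in ΔG het, 2.00 (SE 0.0653) in ΔG hom, 1.03 (SE 0.0332) in ΔPG het and 1.60 (SE 0.0623) in ΔPG hom cells, with adjusted p between 2.4e-14 and 2.1e-07 by limma. Nestin transcripts thus had the smallest difference with retinoic acid in ΔPG het cells, whose ES samples had the highest ES level of that table.

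Pou3f1, also known as Oct6, is a POU factor of epiblast and early neural cells. In ΔG it was 2.51, 2.45 and 2.89 in het ES, 3.61, 3.50 and 3.84 in het RA, 2.38, 2.55 and 2.47 in hom ES, and 4.10, 3.88 and 4.03 in hom RA samples. In ΔPG it was 2.06, 1.94 and 2.27 in het ES, 2.83, 2.58 and 2.43 in het RA, 1.97, 1.95 and 2.34 in hom ES, and 2.78, 3.41 and 3.15 in hom RA samples. RA and ES samples of a genotype did not overlap in either line. The difference was 1.03 (SE 0.153) in ΔG het, 1.54 (SE 0.137) in ΔG hom, 0.52 (SE 0.156) in ΔPG het and 1.03 (SE 0.198) in ΔPG hom cells, with adjusted p between 2.8e-08 and 0.0258 by limma. The ΔPG het value was just past the limit of 0.5, and it was 0.44 without het ES replicate 2 and 0.41 without het RA replicate 1, under the limit. With quantile normalization it was 0.24 (adjusted p 0.245).

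Zic1 and Sox3, factors of the early neural plate, rose less. Zic1 was 1.58, 1.61 and 1.75 in ΔG het ES and 2.15, 2.53 and 2.02 in ΔG het RA samples. It was 1.56, 1.60 and 1.86 in ΔG hom ES and 2.67, 2.36 and 2.48 in ΔG hom RA samples. In ΔPG, Zic1 was 1.42, 1.42 and 1.46 in het ES, 2.40, 2.50 and 2.52 in het RA, 1.69, 1.42 and 1.52 in hom ES, and 2.36, 2.25 and 2.05 in hom RA samples. Each RA group was above its ES group without overlap, and the difference was 0.59 (SE 0.149) in ΔG het, 0.83 (SE 0.143) in ΔG hom, 1.04 (SE 0.105) in ΔPG het and 0.67 (SE 0.153) in ΔPG hom cells, with adjusted p between 9.2e-05 and 0.00474 by limma. The ΔG het difference rested on 1 sample for its call, since it was 0.44 without het RA replicate 2. With quantile normalization the ΔG het and ΔPG hom differences of Zic1 were 0.39 and 0.44, under the limit. The ΔPG het ES samples hardly varied (SD 0.0191), and several ES samples of both lines lay close to the lowest Zic1 value of their line, 1.56 in ΔG and 1.42 in ΔPG. Whether any Zic1 reads were counted in those samples is unknown. The sizes and p-values of the Zic1 differences thus cannot be read as a measured rise from a steady level.

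Sox3 was 2.35, 2.58 and 2.61 in ΔG het ES and 3.05, 2.87 and 2.76 in ΔG het RA samples, a difference of 0.38 (SE 0.138, adjusted p 0.0348) that stayed under the limit of 0.5. It was 2.32, 2.39 and 2.33 in ΔG hom ES and 3.40, 3.00 and 3.37 in ΔG hom RA samples, a difference of 0.91 (SE 0.146, adjusted p 4.1e-05). In ΔPG it was 1.93, 1.93 and 2.23 in het ES, 2.56, 2.82 and 2.67 in het RA, 2.33, 2.04 and 2.12 in hom ES, and 2.52, 2.86 and 2.83 in hom RA samples. The ΔPG differences were 0.65 (SE 0.143, adjusted p 0.00609) in het and 0.57 (SE 0.168, adjusted p 0.0153) in hom cells by limma. The Sox3 transcript has an exonic GC content of 66.6%, the highest of the 8 genes, and with the trend of each sample with GC content removed the 4 differences were 0.05, 0.57, 0.75 and 0.27, so that the call in ΔPG hom cells was lost. With quantile normalization both ΔPG differences of Sox3, 0.38 in het and 0.26 in hom cells, were under the limit.

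Otx2, the homeobox factor of epiblast and anterior brain, went the other way. In ΔG it was 3.20, 3.23 and 3.33 in het ES, 2.45, 2.60 and 2.74 in het RA, 3.41, 3.20 and 3.77 in hom ES, and 2.61, 2.61 and 2.54 in hom RA samples. In ΔPG it was 2.55, 2.03 and 2.55 in het ES, 1.88, 1.77 and 1.78 in het RA, 2.49, 2.74 and 2.60 in hom ES, and 1.81, 1.69 and 1.88 in hom RA samples. Every RA sample lay below every ES sample of its line. The difference was -0.66 (SE 0.130) in ΔG het, -0.87 (SE 0.155) in ΔG hom, -0.57 (SE 0.168) in ΔPG het and -0.82 (SE 0.152) in ΔPG hom cells, with adjusted p between 0.000123 and 0.0243 by limma. Without het ES replicate 1 or without het ES replicate 3 the ΔPG het difference was -0.48, under the limit of a call.

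Pax3 and Neurog2 were not called. Pax3 was between -0.40 and -0.36 in the 6 ΔG ES samples and between -0.40 and 0.31 in the 6 ΔG RA samples, of which 2, at -0.40 and -0.38, were no higher than the highest ES sample. In ΔPG it was between 0.35 and 0.40 in ES and was 0.72, 0.74 and 0.75 in het RA and 1.22, 0.75 and 0.55 in hom RA samples, all above ES. Its differences of 0.23 in ΔG het, 0.40 in ΔG hom, 0.38 in ΔPG het and 0.47 in ΔPG hom cells had adjusted p of 0.125, 0.0186, 0.00102 and 0.0223 by limma and were all under 0.5. The ES groups of Pax3 hardly varied (SD between 0.00872 and 0.0252) and lay close to its lowest value in each line. Whether any Pax3 reads were counted in ES samples is unknown, so these differences and p-values cannot be read as a measured rise from a steady level. Without hom RA replicate 3 the difference in hom cells was 0.60 in ΔG and 0.62 in ΔPG, past the limits of a call, as was the ΔPG hom difference of 0.52 without hom RA replicate 2. Neurog2 lay between -2.26 and -2.08 in ΔG, where the lowest value of the table was -2.26, and between -1.99 and -1.94 in ΔPG, so it hardly varied among the samples.

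**Figure D2:**
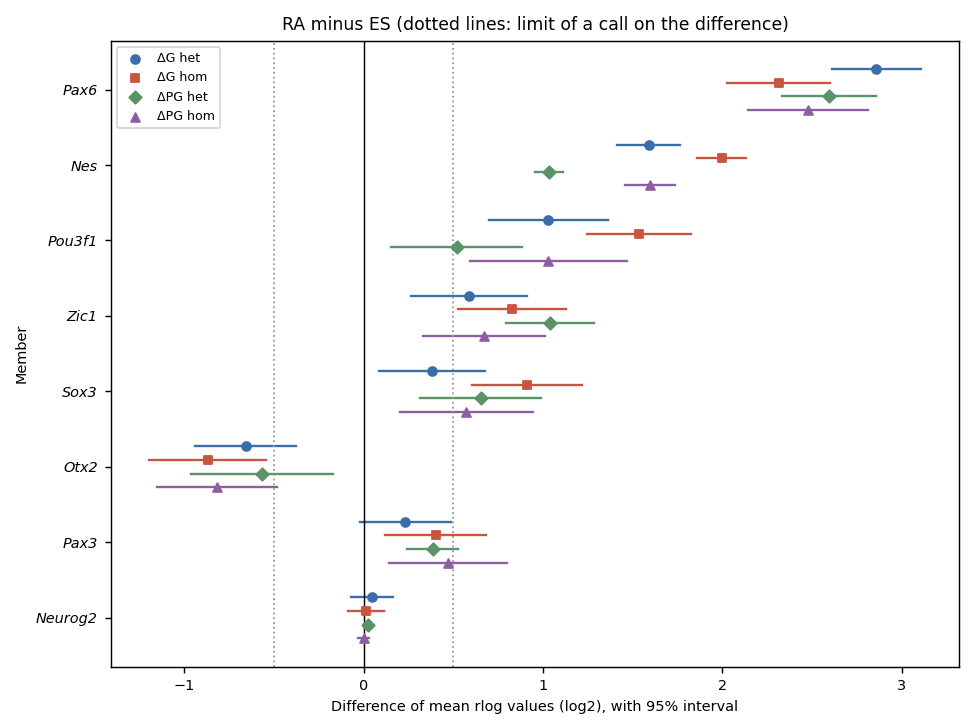
RA minus ES difference of mean rlog values (log2) for each gene in the 4 pairs of groups, with 95% intervals from limma and dotted lines at the limit of 0.5. Pax6 lies between 2.31 and 2.86, Otx2 between -0.87 and -0.57, and Neurog2 at 0.

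The second comparison asked whether the homozygous deletion changed the neural genes. In ΔG, none of the 8 genes was called in ES cells, where limma called 0.984% of all genes. The differences lay between -0.17 and 0.20, no gene had an unadjusted p under 0.05, and the samples of the 2 genotypes overlapped for each gene. In ΔG cells treated with retinoic acid none was called either, where 2.14% of all genes were. Pax6 was at -0.40 (SE 0.107, adjusted p 0.0223, 95% interval from -0.63 to -0.18) and Nes at 0.26 (SE 0.0503, adjusted p 0.00178, 95% interval from 0.16 to 0.37). All hom samples of Pax6 were below and all of Nes above the het samples, and both differences were under the limit of 0.5. Pou3f1 at 0.36 (adjusted p 0.153) and Sox3 at 0.36 (adjusted p 0.189) did not pass the test.

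In ΔPG, Nes was called lower in hom than in het ES cells, by -0.65 (SE 0.0651, adjusted p 0.000155), with all hom samples below all het samples. Of all genes, 13.2% were called in this comparison, and the other 7 neural genes lay between -0.01 and 0.23. Over the 11904 genes whose mean rlog value was 3 or higher, the differences in this comparison went with exonic GC content (Pearson r -0.705 across genes, which are not independent replicates), and Nes has a GC content of 55.3%. With the GC trend removed, the Nes difference was -0.33 (adjusted p 1.2e-05), under the limit of a call. When genes down to a mean rlog value of 1 were included in the GC correction, Sox3 and Pou3f1, with GC contents of 66.6% and 61.5%, were 0.48 (adjusted p 0.0061) and 0.37 (adjusted p 0.0348) higher in hom cells, in place of 0.13 and -0.01. The direction for Pou3f1 thus depends on that correction. In ΔPG cells treated with retinoic acid, none of the 8 genes was called, where 0.846% of all genes were. Pou3f1 was at 0.50 (SE 0.195, adjusted p 0.266, 95% interval from 0.06 to 0.94) and Nes at -0.09 (SE 0.0342, adjusted p 0.266), and neither passed the test. Hom samples of Pou3f1 overlapped with het samples.

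**Figure D3:**
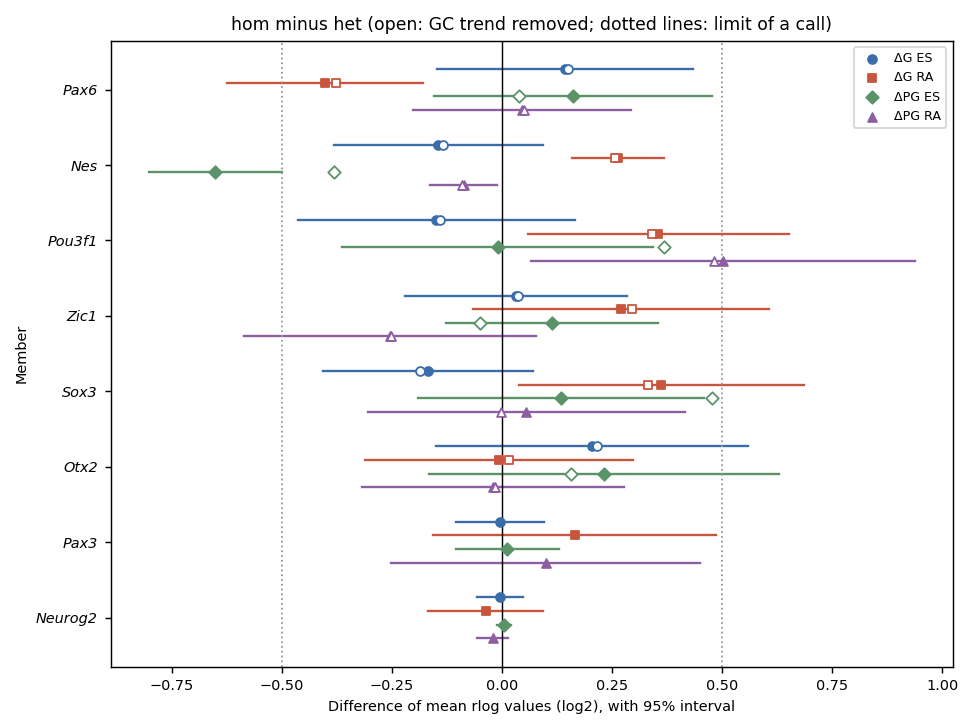
Hom minus het difference of mean rlog values (log2) for each gene, with 95% intervals from limma; open symbols give the difference with the GC trend removed over genes whose mean rlog value was 1 or higher, and dotted lines the limit of 0.5. Nes in ΔPG ES cells lies at -0.65, and at -0.38 with the GC trend removed.

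Whether the response to retinoic acid differed between genotypes was tested with an interaction term fitted to all 12 samples of 1 table. In ΔG none of the 8 genes was called, where 2.38% of all genes were. The response of Pax6 was smaller in hom than in het cells by -0.54 (SE 0.181, adjusted p 0.102), that of Nes larger by 0.41 (SE 0.105, adjusted p 0.0248), and those of Sox3 and Pou3f1 differed by 0.53 (SE 0.203, adjusted p 0.182) and 0.50 (SE 0.205, adjusted p 0.218). The Pax6 value was close to the threshold: adjusted p was 0.0613 when the test was limited to genes whose mean rlog value was 3 or higher. In ΔPG, Nes was called, with a response larger in hom than in het cells by 0.56 (SE 0.0751, adjusted p 6.6e-05), where 13.9% of all genes were called. In this interaction the differences went with GC content as well (Pearson r 0.695 across genes), and the Nes value was 0.25 (adjusted p 0.00904) with the GC trend removed. Pou3f1 differed by 0.51 (SE 0.261, adjusted p 0.198) in ΔPG and by 0.68 (adjusted p 0.0607) without hom RA replicate 1. Whether the GC trend or the Trp53 difference between the ΔPG clones has a part in the Nes values beyond this correction was not tested.

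Other neural genes were given by a list of 44, of which 39 varied in each table. The same number, 11, was called higher with retinoic acid in each of the 4 pairs of groups, where between 16.5% and 18.0% of all genes were. In all 4 pairs, 11 genes were called higher. Between 5 and 6 were called lower, 5 of them in all 4, where between 11.3% and 13.6% of all genes were called lower per pair. The share of all genes called in all 4 pairs, or in none, was not computed. The median difference of the list was 0.11 and 0.08 in ΔG het and hom and 0.02 and 0.04 in ΔPG het and hom cells, near the median of all genes. Of the 41 genes that varied in at least 1 table, 24 were called in none of the pairs in which they were tested. The 3 largest mean rises were those of Meis1, a TALE homeobox cofactor of Hox proteins, from 3.95 to 4.88, Cdh2, which encodes N-cadherin, from 3.07 to 3.93, and Irx3, a homeobox factor of the spinal cord, from 2.91 to 3.65. Among the 3 largest mean falls were those of Sox2, a factor shared by ESCs and neural progenitors, from -3.34 to -2.87, and Zic5, a zinc-finger factor that ESCs also express, from -1.29 to -0.64.

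**Figure D4:**
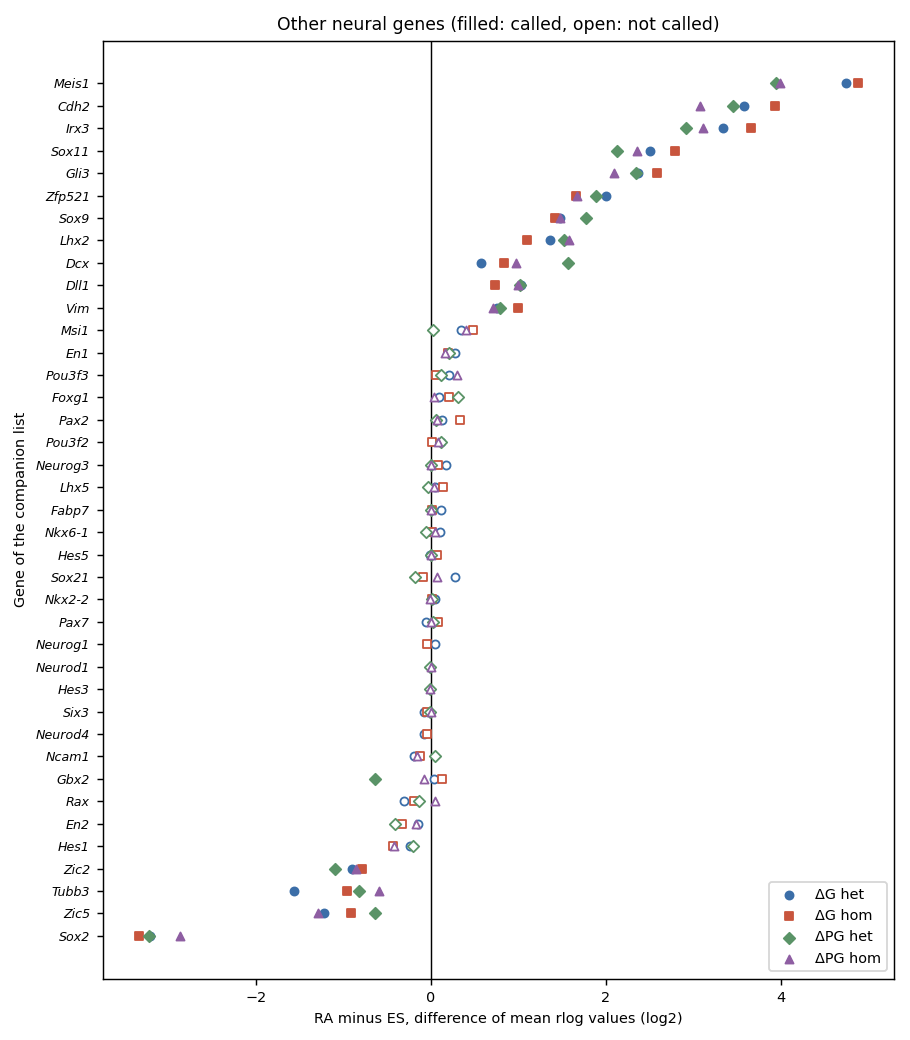
RA minus ES difference of mean rlog values (log2) for genes of the companion list, 2 of which are not drawn, sorted by the mean over the pairs of groups; filled symbols were called and open symbols were not. From Vim up to Meis1, 11 genes are called higher in all 4, and the 4 genes from Zic2 down to Sox2 are called lower in all 4.

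Between genotypes, 2 of the 39 companions were called in ΔG ES, 2 in ΔG RA and 2 in ΔPG ES cells, where 0.984%, 2.14% and 13.2% of all genes were. Hom minus het in ΔG ES cells was -0.60 for Cdh2 (SE 0.149, adjusted p 0.0914) and -0.57 for Ncam1, a neural cell adhesion molecule (SE 0.0893, adjusted p 0.0218). In ΔG RA cells it was 0.99 for Tubb3, the neuronal beta-tubulin (SE 0.0968, adjusted p 6e-07), and -0.50 for Ncam1 (SE 0.0836, adjusted p 0.000432). In ΔPG ES cells it was -0.72 for Tubb3 (SE 0.0527, adjusted p 3.2e-05) and 0.63 for Zic5 (SE 0.0713, adjusted p 0.000306), and with the GC trend removed these were -0.31, under the limit of a call, and 0.67. In ΔPG RA cells, where 0.846% of all genes were called, none of the 39 was called by limma. Tubb3 was thus higher in hom than in het RA cells in ΔG. In ΔG ES cells it was higher by 0.40 (limma adjusted p 0.0448), under the limit of a call. In ΔPG, Tubb3 was lower in hom than in het ES cells. Its RA means in ΔPG were 6.81 in hom and 7.30 in het cells, and this difference was not called. The response to retinoic acid differed between genotypes for Tubb3 in ΔG by 0.60 (SE 0.124, adjusted p 0.00436), and in ΔPG for Zic5 by -0.64 (SE 0.133, adjusted p 0.00233), for Dcx by -0.59 (SE 0.182, adjusted p 0.0283) and for Gbx2 by 0.57 (SE 0.131, adjusted p 0.00497). With the GC trend removed, the ΔPG values were -0.68 for Zic5 and 0.21 for Gbx2, the latter no longer called. Dcx has a mean rlog value under 3 and was not in this correction, so its call was not checked for the GC trend. Its ΔPG het ES samples hardly varied (SD 0.0282).

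Lists of other cell types moved in the same samples. With retinoic acid, between 16.5% and 18.0% of all genes were called higher and between 11.3% and 13.6% lower. All 9 ESC markers tested were called lower with retinoic acid in ΔG and in ΔPG het cells and 8 of 9 in ΔPG hom cells, with medians between -3.81 and -3.26, led by Esrrb and Nanog. Of 10 genes known to respond to retinoic acid, 9 were called higher and 1, Cdx1, a homeobox gene, was called lower in each of the 4 comparisons, with list medians between 2.42 and 2.56. Cdx1 lay between -3.55 and -2.61, Cyp26a1, an enzyme that degrades retinoic acid, between 4.57 and 5.88 and Hoxb1 between 2.81 and 3.36. Of 8 primitive endoderm markers, 7 were called higher in each comparison, with medians between 2.12 and 2.39, and Gata6 between 3.40 and 4.06. The other, Hnf4a, lay between -0.68 and -0.16 and was called lower in ΔPG hom cells (adjusted p 0.00246). In ΔPG RA cells 3 of these 8, Gata4, Sox17 and Dab2, were called lower in hom than in het cells, where 0.846% of all genes were called. The list median was -0.45. In ΔG RA cells 1 of the 8, Dab2, was called lower in hom cells (-0.70, limma adjusted p 2.4e-06), where 2.14% of all genes were called. Gata4 was at -0.48 and under the limit of a call, and the list median was -0.19. Of 8 primed epiblast genes, between 3 and 4 were called higher and 2 lower, with Cldn6 between 3.41 and 4.14. Of 5 neural crest markers, between 2 and 4 were called higher and 1 lower, and of the mesoderm markers tested, 2 were called higher and between 1 and 2 lower.

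Within the 12 samples of a table, the genes that rose went together. The correlation between Pax6 and Nes was 0.965 in ΔG and 0.921 in ΔPG, and between Pax6 and Otx2 it was -0.895 and -0.897. These points share the 2 treatments, which set most of their spread, and no p is given. By the smaller of the correlations in the 2 tables, over 3554 genes whose mean was 3 or higher and whose range was at least 1 in both, the patterns most like Pax6 were those of Igfbp5, Crabp2 and Fam65b (between 0.994 and 0.996). Those most like Nes were Flywch1, Hspg2 and Megf6, those most like Pou3f1 were Fam64a, Adcy7 and Thbs3, and those most like Otx2 were Cstb, Gm5101 and 1110002J07Rik. For Zic1 they were Ptpn9, F3 and Lrrc58, for Sox3 Mmp9, Gata2 and Ehd2, and for Pax3 Tank, Magee1 and Ube2j1. For Neurog2 the highest such value was 0.51.

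Circular chromosome conformation capture (4C-seq) gave, in each of 2 replicates, the regions contacted by the promoter of 5430416N02Rik in ESCs. Taken as mm9, the stated build, 23 of 680 starts of regions matched a HindIII site, and 618 of 676 did after the offset of nearby genes between GRCm38 and mm9 was subtracted, so gene positions of GRCm38 were used. Nes, Sox3 and Pou3f1 lay in regions of both replicates, Pax6 and Zic1 in a region of replicate 1 only, Neurog2 in one of replicate 2 only, and Pax3 and Otx2 in none. Nes (chr3:87971093-87980451) lay in chr3:86344450-91566362 in replicate 1 and in chr3:87112540-91194809 in replicate 2. Of 21631 protein-coding genes, 54.1% lay in a region of replicate 1, 53.6% in a region of replicate 2 and 38.9% in both. The 3 of 8 neural genes in regions of both replicates were near that share.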

How the data were processed

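From this series, 24 RNA-seq samples and the regions of 2 4C-seq replicates were analysed. The authors aligned ribosomal RNA-depleted, stranded libraries to mm9 with TopHat2 (2.1.0), removed duplicates with Picard, counted reads per gene name by strand with HTSeq (0.6.0) and GENCODE models, and transformed counts with DESeq2 (1.14.1), per the study's methods and the submitters' processing notes. The deposited values are log2 rlog values without counts, so the depth per sample is unknown. The deposited 4C-seq regions hold positions without a score. Genes equal in all 12 samples of a table were left out, which left 22048 in ΔG and 21979 in ΔPG.

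R 4.3.3 with limma 3.58.1 (lmFit, then eBayes with trend) was run on 6 samples per comparison, or on 12 for the interaction, without a replicate block. P-values were adjusted over all genes tested. Calls were tested on simulated data. For the GC correction, each gene was centred on its mean and a lowess curve (span 0.3) on exonic GC content was subtracted within each sample. No pairing of the samples by replicate number was evident. The genes and lists were chosen with earlier results of these data known, and the lists serve as description. Named companions are the 3 largest mean rises and falls among those called alike in 4 comparisons, and those called between genotypes (at most 3 each), and other lists have at most 2 examples each by their mean difference with retinoic acid; Cdx1, Hnf4a, Gata4, Sox17 and Dab2 were named after their values were seen, and 1 companion that this rule names is not reported here. Python 3.11.15 with pandas 2.3.3 was used for regions and promoters. RIP-seq and Capture-C were not used here.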

Additional observations from a re-analysis of the deposited data

Results flagged for a closer look

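The response of Nes to retinoic acid differed between ΔPG genotypes in the interaction test over 12 samples, by 0.56 (SE 0.0751, limma adjusted p 6.6e-05). RA minus ES was 1.03 in het and 1.60 in hom cells, and all RA samples were above all ES samples in both genotypes. The ES groups lay apart (8.40 ± 0.0437 in het and 7.75 ± 0.126 in hom, SD, n = 3), while the RA groups differed by -0.09. With the GC trend removed the value was 0.25 and no longer called. In ΔG the same test gave 0.41 (adjusted p 0.0248), in the same direction and under the limit of 0.5 on the difference.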

How the results depend on the processing

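The number of neural genes called with retinoic acid was 5 in ΔG het and 6 in each of the other 3 pairs of groups. It was 3 in both ΔG pairs and 2 in both ΔPG pairs when only genes whose mean rlog value was 3 or higher were tested, alone or with the GC trend removed, with or without the replicate block, because only 3 of the 8 genes in ΔG and 2 in ΔPG have such a mean. Leaving out 1 sample gave counts from 4 to 5 in ΔG het, 6 to 7 in ΔG hom, 5 to 6 in ΔPG het and 6 to 7 in ΔPG hom cells, and for hom minus het 0 in ΔG ES, ΔG RA and ΔPG RA and 1 in ΔPG ES cells. Without a limit on the difference, 2 genes (Pax6 and Nes) were called for hom minus het in ΔG RA cells. For hom minus het in ΔPG ES cells, 0 in place of 1 was called with the GC trend removed, over genes with a mean of at least 3 (with or without the replicate block) or of at least 1, a filter chosen after seeing the data. With the latter, Zic1 was reversed to -0.0497 in that comparison.

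The ΔG interaction, with 0 genes called, is the least settled result. It gave 1 with quantile normalization, without a variance trend and with the GC trend removed, with or without the replicate block (Pax6 each time), 1 without a limit on the difference (Nes), 2 when genes with a mean of at least 3 were tested (Pax6 and Pou3f1), 2 with the GC trend removed over genes with a mean of at least 1 (Pax6 and Sox3), and 0 to 1 when 1 sample was left out (Pax6 without hom ES replicate 2 or het RA replicate 3, Sox3 without hom RA replicate 2). The ΔPG interaction, with 1 gene called, gave 0 at an adjusted p under 0.05 and a fold over 1.5 and with the GC trend removed, with or without the replicate block or over genes with a mean of at least 1, and 1 to 2 when 1 sample was left out (Pou3f1 added without hom RA replicate 1). In it, Pax6 was reversed to 0.0269 with the GC trend removed, with or without the replicate block, and to 0.0127 over genes with a mean of at least 1. The cause of the GC trend, and whether it has a part in these values, was not tested.

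The replicate block alone kept the number of genes called in each of the 10 comparisons (0 to 6), and all 58 differences that were at least 0.1 in size or called under some setting kept their direction and call. Deviations of same-numbered samples had correlations between -0.033 and 0.0855, and 3 of 18 pairs in ΔG and 8 of 18 in ΔPG correlated best with their own number. Between het ES and hom ES in ΔPG, all 3 did (0.0855, 0.0103 and 0.0488). Over all groups no pairing by number was evident, and this check does not exclude it. Fits over all 12 samples kept all 46 such differences to which they apply. With quantile normalization, 5 calls with retinoic acid were lost and the ΔG Pax6 interaction gained its call, and with the limits of 0.05 and 1.5-fold 4 calls were lost. What depth limits could not be read, since the rlog values carry no counts. Neurog2 had a range of 0.18 in ΔG and 0.05 in ΔPG over the 12 samples of a table.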
